A study of Mus musculus with 7 samples.

Results

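The 4 adult hemoglobin genes of the mouse, Hba-a1, Hba-a2, Hbb-bs and Hbb-bt, were followed through single-cell RNA sequencing of the seminal vesicle, the gland that makes most of the volume of semen and whose own cells do not make red blood cells. They are 4 of the 30406 genes listed in every count matrix. The genes were chosen with their UMI counts in these samples and the low protein diet against the control diet in view, and so were the sets of barcodes in which they were read. Their levels and the low protein contrast are therefore described without a test. The other diets, age and rapamycin, which were not the contrast in view, were tested in fits over all genes. Those fits read the same UMI counts, so a member called in them is not independent evidence. A UMI (unique molecular identifier) stands for 1 captured RNA molecule, and a barcode for 1 droplet that was kept as a cell. The matrices held 53352 barcodes of 23 mice, of which 1378 (2.58%) had at least 1 hemoglobin UMI. A barcode was called high-hemoglobin where the 4 genes made up 10% or more of its UMIs (233 barcodes, 0.437%), secretory where Svs2, Svs4, Svs5 and Svs6, which encode seminal vesicle secretory proteins, made up 30% or more (11766 barcodes), and Ptprc-positive where it held a UMI of Ptprc, the pan-leukocyte gene CD45 (3131 barcodes).

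All mice were wild-type males. An aging pool held 10 C57BL/6J mice on chow, 2 each at 3, 20 and 28 months without drug and 2 each at 20 and 28 months labelled with rapamycin, an inhibitor of the mTOR kinase, whose dose is not given in the sources used here. A diet pool held 8 FVB/NJ mice of 3 months, 2 each on a control diet, a high fat diet, a low protein diet and a calorically restricted ration, and 3 further FVB/NJ mice of 3 months on the control, high fat or low protein diet were each sequenced as a single library. The last 2 single libraries came from FVB/NJ mice on the control diet, called the young individual (3 months) and the old individual (18 months). Within a pool, the mouse and the condition of each matrix came from its tag. No C57BL/6J mouse was sequenced outside the aging pool, which leaves strain, pool and age design as things that cannot be told apart between pools, and each group of a pool is 2 mice.

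Hemoglobin is the oxygen carrier of the red cell, built of paired alpha and beta chains around heme. Mouse reticulocytes, the last step before the mature red cell, have lost the nucleus but still hold large amounts of alpha and beta chain RNA, so a droplet with a red cell holds little else. In a dissected organ such RNA comes with the blood left in its vessels. Droplet methods also capture RNA that is free in the cell suspension, which reaches all cell types at a low and like level. In a dissociated organ, fewer red cells and less RNA per red cell cannot be told apart from a sum of UMIs.

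The genes of each pair differ so little that the split of reads between them rests on few positions, and the sequence that separates them is shown for that reason. Both alpha genes lie on chromosome 11 of GRCm38, Hba-a1 at chr11:32283511-32284465 and Hba-a2 at chr11:32296489-32297298, both on the plus strand. Both beta genes lie on chromosome 7 on the minus strand, Hbb-bs at chr7:103826534-103828096 and Hbb-bt at chr7:103812524-103813996. Each gene has 3 exons. In the GENCODE vM21 reference transcripts, 428 of the 429 coding bases of Hba-a1 and Hba-a2 were identical, as were 443 of the 444 coding bases of Hbb-bs and Hbb-bt. The lines below give 90 coding bases of exon 3 around each difference, with the differing base in capitals. The alpha pair differed by C381T and the beta pair by C417T, counted from 1 at the first coding base of Hba-a1 and Hbb-bs, and both fall at codon position 3 (codons 127 and 139).
Hba-a1: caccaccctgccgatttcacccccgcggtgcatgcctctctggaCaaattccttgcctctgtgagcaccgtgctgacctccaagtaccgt
Hba-a2: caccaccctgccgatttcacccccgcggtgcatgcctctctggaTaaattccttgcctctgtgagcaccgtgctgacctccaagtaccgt
Hbb-bs: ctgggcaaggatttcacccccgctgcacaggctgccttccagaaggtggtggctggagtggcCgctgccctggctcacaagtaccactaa
Hbb-bt: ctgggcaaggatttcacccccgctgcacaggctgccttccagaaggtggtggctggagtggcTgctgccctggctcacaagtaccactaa

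The libraries read the 3′ end of each RNA. There, the 74 bases of the annotated Hba-a1 3′ UTR were identical to the first 74 of the 90 bases of Hba-a2, while the 3′ UTRs of Hbb-bs and Hbb-bt matched at 94 of 134 aligned positions (70.1%). The assignment of reads between Hba-a1 and Hba-a2 is therefore uncertain, that between the beta genes less so, and the sum of each pair does not depend on it. Alpha and beta coding sequences (Hba-a1 against Hbb-bs) matched at 280 of 463 aligned positions (60.5%), so reads of the chains are distinct. FVB/NJ sequence was not used here.

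The promoters of the 4 genes are given for what they share. In the RefSeq promoter table (GRCm38.p6), the 250 bases before the start of Hba-a1 and Hba-a2 matched at 247 of 253 aligned positions (97.6%), and those of Hbb-bs and Hbb-bt at 182 of 258 (70.5%). Motifs were searched on both strands. CCAAT, the CCAAT box, occurred in all 4 promoters and in 33.9% of the 32851 promoters of the same length in that table. CACCC, the motif of red cell factors of the Klf family, occurred in all 4 and in 52.0% of the table. ATATAA, which resembles the TATA box, occurred in all 4 and in 9.10%. GATAAG, the motif of the GATA factors, occurred in all 4 and in 6.55%. No match overlapped another in these 4 promoters. The line below is chr11:32296392-32296491 on the plus strand, the stretch before and over the start of Hba-a2, with the CCAAT box, the Klf motif and the TATA-like motif in capitals. The GATA motif lay further out, from -185 to -180 relative to the start. A letter match is a description and not a bound site.
Hba-a2 promoter: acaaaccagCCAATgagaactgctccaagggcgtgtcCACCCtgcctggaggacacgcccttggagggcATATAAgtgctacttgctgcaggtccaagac

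Total UMIs per mouse ran from 1840036 to 15158479 in the aging pool (355 to 972 barcodes), from 1037141 to 10233030 in the diet pool (222 to 1340 barcodes), from 38763479 to 48530060 in the 3 diet singles (5890 to 6005 barcodes) and were 27856730 and 40134299 in the young and old individuals (11773 and 10729 barcodes). The young and the old individual stood apart: they held 0 secretory barcodes and yet 125305 of the 210368 hemoglobin UMIs (59.6%), so totals are given with and without them. Outside high-hemoglobin barcodes, Gpx5, an epididymal secreted enzyme, had 27636 and 40698 CPM in them and 0.245 CPM in low protein pool 2. Lcn8 had 2585 and 11121 CPM against 0. Whether these 2 libraries hold epididymal tissue was not tested, so their droplets may not be those of seminal vesicle. No barcode was shared within a pool, at most 30 (0.408%) between single libraries and at most 7 (0.792%) between a pool and another library. No doublet caller was run, so a droplet with a red cell and another cell counts once, under each set whose rule it meets. Nothing in the sources says that the mice of a group shared a cage or day, and the spread between mice of a group is the only error used.

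Hbb-bs was the most abundant of the 4 in the summed data with 133198 UMIs (63.3%), followed by Hba-a1 with 62120 (29.5%), Hbb-bt with 13550 (6.44%) and Hba-a2 with 1500 (0.713%). Each UMI is 1 molecule read at its 3′ end, so these are shares of molecules and were not divided by length. Levels per mouse are given in CPM, the UMIs of a gene scaled to a common total of UMIs, over all barcodes of the mouse.

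Hbb-bs, the major adult beta chain gene here, had 461 and 1.12 CPM in the 2 mice of 3 months in the aging pool, 184 and 45.0 CPM at 20 months and 531 and 294 CPM at 28 months. In the rapamycin mice it had 3.26 and 0.699 CPM at 20 months and 5.12 and 1.15 CPM at 28 months. The 4 rapamycin mice lay below all 4 untreated mice of their ages, but 3 months 2, an untreated mouse, lay among them. In the diet pool Hbb-bs had 671 and 2648 CPM on the control diet, 3071 and 4010 CPM on low protein, 349 and 7.50 CPM on high fat and 421 and 1784 CPM under caloric restriction. In the single libraries it had 14.6 CPM on the control diet, 15.8 CPM on high fat, 3.84 CPM on low protein, and 2401 and 249 CPM in the young and the old individual. Both low protein mice of the pool lay above both control mice, whereas the low protein single lay below its control.

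Hba-a1, an alpha chain gene, followed a like order of mice. In the aging pool it had 156 and 0.726 CPM at 3 months, 44.9 and 15.0 CPM at 20 months and 128 and 92.3 CPM at 28 months, against 0 and 0 CPM at 20 months and 1.14 and 0 CPM at 28 months with rapamycin. Mice of the diet pool had 274 and 1059 CPM (control), 1418 and 1719 CPM (low protein), 108 and 5.00 CPM (high fat) and 179 and 810 CPM (caloric restriction). The singles had 5.63 CPM (control), 6.24 CPM (high fat), 1.34 CPM (low protein), 1228 CPM (young) and 121 CPM (old). Mice of the same group differed most at 3 months of the aging pool and on high fat, where 1 of each pair was near 0.

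Hbb-bt, the other adult beta chain gene, had 39.6 and 0.462 CPM at 3 months, 10.8 and 6.11 CPM at 20 months, 49.1 and 30.3 CPM at 28 months, and 0.543, 0.175, 0.379 and 0 CPM in the rapamycin mice. Mice of the diet pool had 61.1 and 272 CPM (control), 246 and 318 CPM (low protein), 18.04 and 0.556 CPM (high fat) and 30.3 and 115 CPM (caloric restriction). Low protein pool 1 lay below control pool 2 here, so the groups overlapped for Hbb-bt. The singles had 0.989 CPM (control), 1.23 CPM (high fat), 0.413 CPM (low protein), 279 CPM (young) and 30.9 CPM (old).

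Hba-a2, the second alpha chain gene, was the lowest of the 4 in FVB/NJ mice. It had 44.9 and 0.264 CPM at 3 months, 13.7 and 4.69 CPM at 20 months, 38.5 and 29.5 CPM at 28 months, and 0, 0, 0.190 and 0 CPM with rapamycin. Diet pool levels were 6.55 and 18.3 CPM (control), 28.8 and 38.0 CPM (low protein), 2.60 and 0 CPM (high fat) and 3.30 and 18.2 CPM (caloric restriction). The singles had 0.103 CPM (control), 0.0242 CPM (high fat), 0.0258 CPM (low protein), 12.0 CPM (young) and 1.82 CPM (old). The untreated mice of 20 and 28 months (4.69 to 38.5 CPM) thus lay within the range of the diet pool (0 to 38.0 CPM) or just above it, beside lower Hba-a1 than 6 of the 8 diet pool mice.

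**Figure D1:**
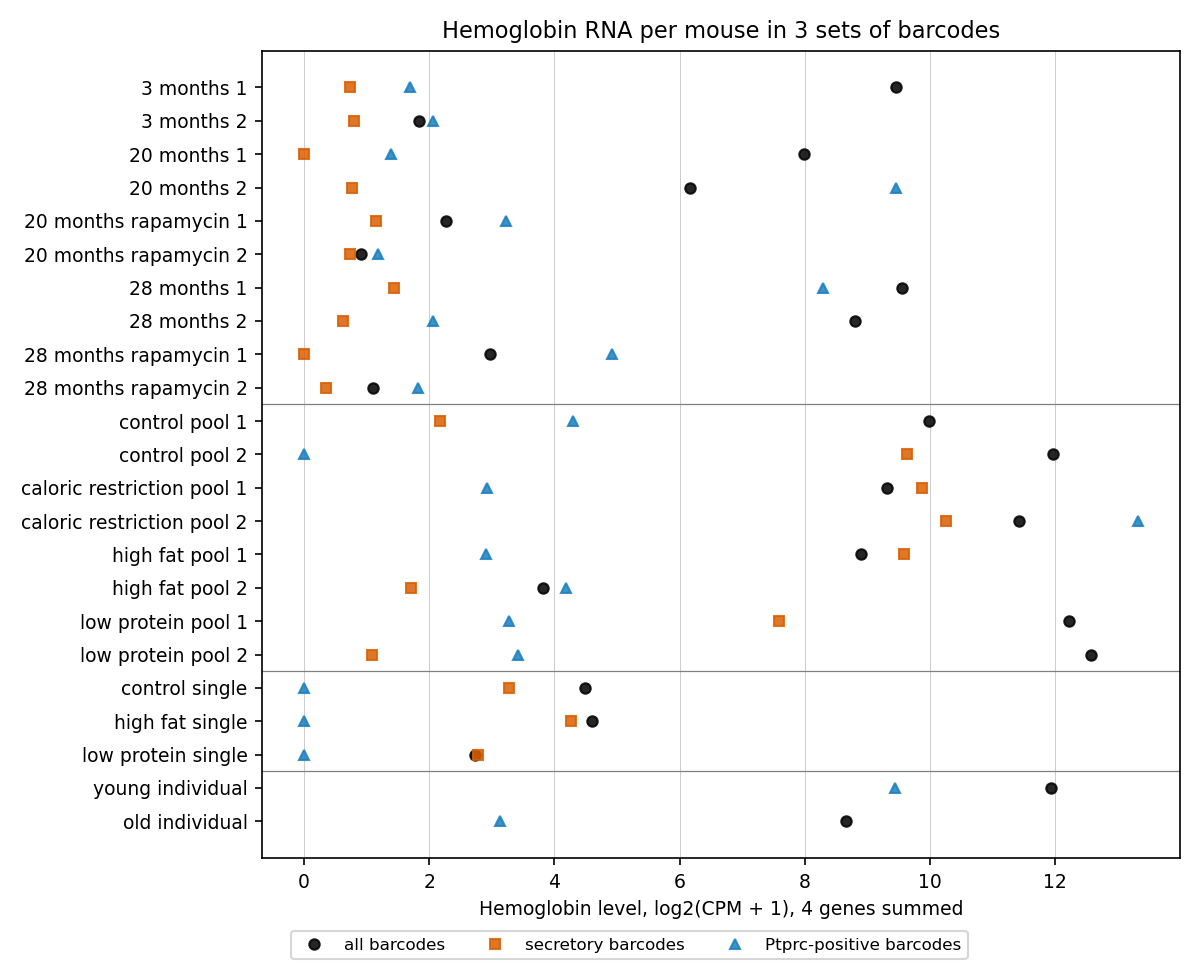
Summed hemoglobin of each mouse as log2(CPM + 1), in all barcodes, secretory barcodes and Ptprc-positive barcodes, with mice grouped by pool, age, drug and diet. Over all barcodes the aging pool ran from 0.874 to 747 CPM and the diet pool from 13.1 to 6086 CPM.

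Most of this RNA sat in very few droplets. The 233 high-hemoglobin barcodes, found in 16 mice, held 198637 hemoglobin UMIs (94.4%). The young and the old individual had 192 of them (173 and 19). Without these 2 mice, 41 high-hemoglobin barcodes held 79645 of 85063 hemoglobin UMIs (93.6%). The median high-hemoglobin barcode had 719.5 UMIs in the young and old individuals and 3330 in the other 21 mice. Among the 233, hemoglobin made up 80% or more of the UMIs in 159, 50% or more in 172 and 20% or more in 212. The 2 barcodes just inside the limit had 10.1% and 11.0%, and the 2 just outside it 9.70% and 9.06%, with 20 barcodes between 5% and 10% in all. Only 48 of the 233 passed a filter for whole cells (500 genes or more, mitochondrial share 10% or less).

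High-hemoglobin barcodes numbered 0 to 11 per mouse outside the young and the old individual. The aging pool had 3 and 0 at 3 months, 1 and 1 at 20 months, 3 and 1 at 28 months and none in the 4 rapamycin mice. The diet pool had 3 and 2 on the control diet, 5 and 11 on low protein, 1 and 0 on high fat and 2 and 3 under caloric restriction. The control single had 3, the high fat single 2 and the low protein single 0. A level over all barcodes therefore rested on a handful of droplets: the single richest barcode held 98.5% of the hemoglobin UMIs of 20 months 2, 89.7% of 28 months 2 and 86.0% of control pool 2. In low protein pool 2, with 11 such droplets, the richest held 21.4%.

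**Figure D2:**
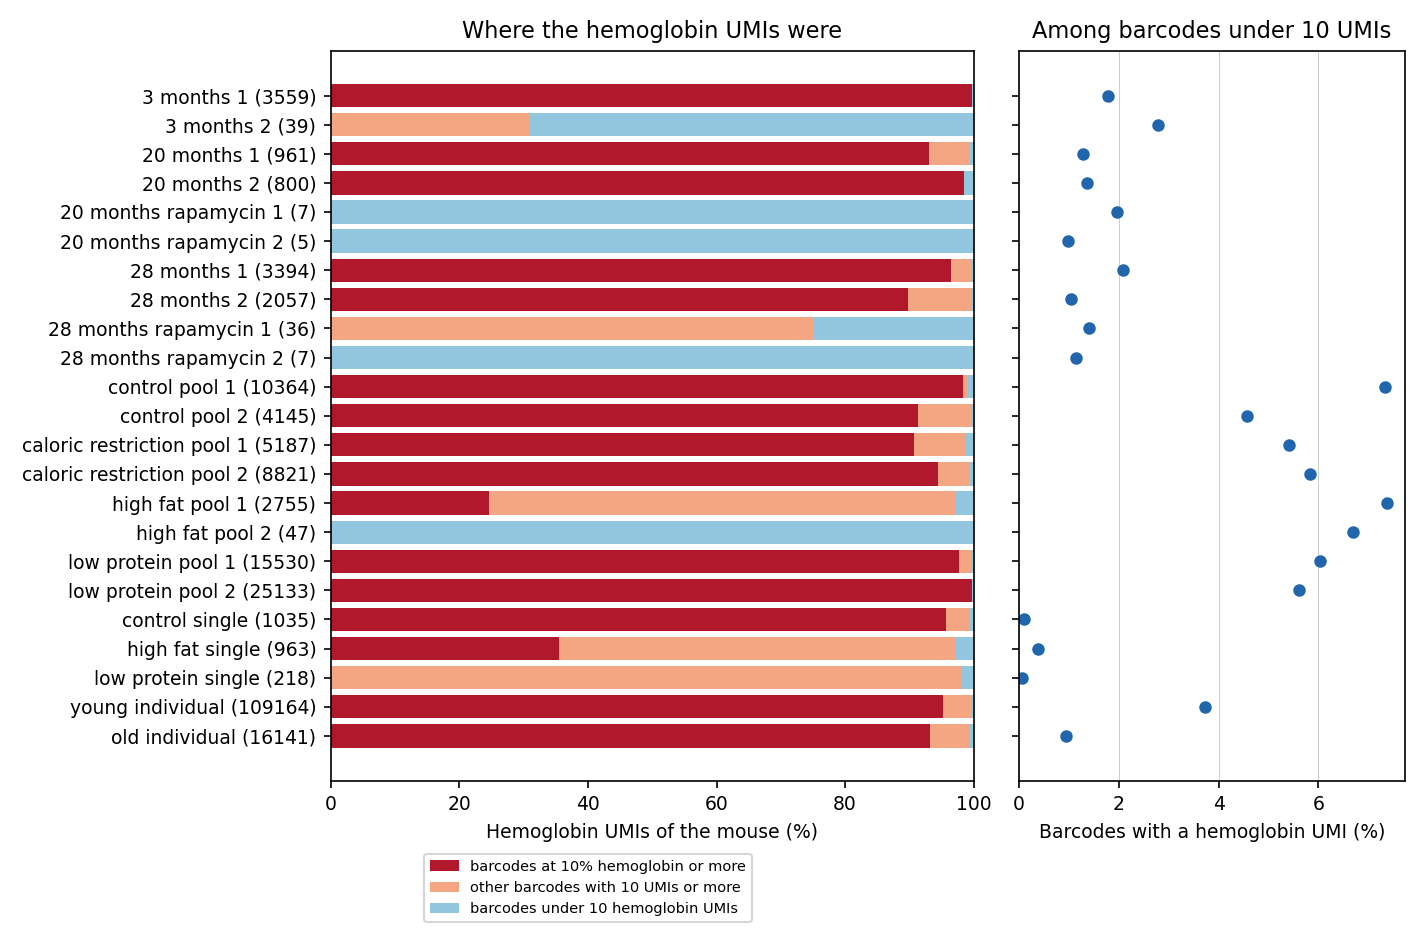
Left, percent of each mouse's hemoglobin UMIs (total in the label) found in high-hemoglobin barcodes, in other barcodes with 10 or more hemoglobin UMIs and in barcodes with fewer than 10. Right, percent of the barcodes with fewer than 10 that held a hemoglobin UMI, from 4.57% to 7.37% in the diet pool, 0.990% to 2.78% in the aging pool and 0.0666% to 0.369% in the diet singles.

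Outside these droplets, 59 other barcodes of 16 mice held 10 or more hemoglobin UMIs each, 10546 in all. Among the remaining barcodes with fewer than 10 hemoglobin UMIs, the share that held any was 4.57% to 7.37% in the 8 mice of the diet pool (median 5.94%), 0.990% to 2.78% in the 10 of the aging pool (median 1.38%), 0.0666% to 0.369% in the 3 diet singles, 3.73% in the young and 0.944% in the old individual. The ranges of the diet pool, the aging pool and the diet singles did not overlap. The hemoglobin level over barcodes with fewer than 10 hemoglobin UMIs was, in the diet pool, 10.3 and 10.8 CPM on the control diet, 12.1 and 14.2 CPM on low protein, 13.4 and 13.1 CPM on high fat and 8.71 and 14.1 CPM under caloric restriction. It varied by less than 2-fold between mice whose summed hemoglobin ran from 13.1 to 6086 CPM. In the aging pool this level ran from 0.874 to 3.80 CPM, with both extremes in rapamycin mice of 20 months (0.874 and 3.80 CPM). In the singles it was 0.124 CPM (control), 0.630 CPM (high fat) and 0.103 CPM (low protein).

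Secretory barcodes held few hemoglobin UMIs in the aging pool and many, in 1 or 2 barcodes each, in 5 mice of the diet pool. In the aging pool, 788 secretory barcodes held 23 hemoglobin UMIs, and their level per mouse ran from 0 to 1.71 CPM (median 0.663). In the diet pool the secretory level was 3.49 and 791 CPM (control), 191 and 1.13 CPM (low protein), 763 and 2.27 CPM (high fat) and 936 and 1215 CPM (caloric restriction). In each high value the UMIs lay in 1 or 2 barcodes: 347 of 348 UMIs in control pool 2, 3022 of 3031 in caloric restriction pool 1, 447 of 451 in caloric restriction pool 2 and 2001 of 2012 in high fat pool 1 lay in 1 barcode, and 306 of 311 in low protein pool 1 in 2. With barcodes of 10 or more hemoglobin UMIs left out, the secretory level was 3.49 and 2.35 CPM (control), 3.09 and 1.13 CPM (low protein), 4.30 and 2.27 CPM (high fat) and 2.79 and 11.6 CPM (caloric restriction), the last resting on 4 UMIs. The 3 singles had 8.63 CPM (control), 18.1 CPM (high fat) and 5.89 CPM (low protein) in secretory barcodes, and 0.0871, 0.591 and 0.108 CPM after that step.

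Ptprc-positive barcodes held hemoglobin in the same way. Most mice of the pools had 0 to 29.2 CPM, and 3 mice stood far above this. In 20 months 2 the level was 702 CPM, with 788 of 791 UMIs in 1 barcode. In 28 months 1 it was 311 CPM (683 of 688 UMIs in 2 barcodes) and in caloric restriction pool 2 it was 10236 CPM (6747 of 6754 UMIs in 2 barcodes). The 3 diet singles had no hemoglobin UMI in 153, 143 and 105 Ptprc-positive barcodes, which allows shares of up to 1.96%, 2.10% and 2.86% of barcodes with a UMI. In the young individual, 306 of 328 UMIs lay in 2 barcodes (696 CPM).

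The share of barcodes with a hemoglobin UMI was compared at equal depth, because secretory barcodes were deeper. In the diet pool, 2.86% to 23.5% of secretory barcodes had a hemoglobin UMI at median depths of 14344 to 40822 UMIs, and 0% to 8.82% of Ptprc-positive barcodes at 2832 to 3881 UMIs. After each barcode was thinned to 1000 UMIs, the shares were 0.0491% to 7.03% and 0% to 3.01%, with 0 secretory and 1 to 7 Ptprc-positive barcodes per mouse left out as too shallow. In the aging pool the thinned shares were 0% to 0.219% in secretory and 0.170% to 1.78% in Ptprc-positive barcodes, against 0% to 8.11% and 0.885% to 3.96% unthinned. In the 3 diet singles 0.152% to 0.749% of secretory barcodes had a hemoglobin UMI (0.00737% to 0.209% thinned). These shares cover counting error only, and for a set of 17 barcodes such as the secretory set of caloric restriction pool 2 (23.5%) the 95% Wilson interval ran from 9.56% to 47.3%.

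Hemoglobin levels of secretory and Ptprc-positive barcodes were then compared within each of the 21 mice that had both. The log2 ratio of CPM (pseudocount 1 CPM, secretory over Ptprc-positive) averaged -0.08 ± 4.61 (SD, n = 21), with secretory higher in 7 mice. In the aging pool alone it averaged -2.95, with secretory lower in 10 of 10 mice. Over the diet pool it averaged 2.19, with secretory higher in 4 of 8. Without barcodes of 10 or more hemoglobin UMIs the mean over 21 mice was -0.92, with secretory higher in 5. Svs RNA swells the denominator of the secretory CPM: with it removed as well, the mean was -0.42 and secretory was higher in 9 of 21. The sets of barcodes were chosen with hemoglobin in view, so these ratios are a description with no test.

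The makeup of the hemoglobin RNA differed between the pools in 1 of its 3 ratios. Hba-a2 made up 22.5% ± 3.89 (SD, n = 7) of alpha chain UMIs in the aging pool, against 1.82% ± 0.771 (SD, n = 8) among mice of the diet pool. The groups did not overlap (14.3% to 26.7% against 0% to 2.34%; exact permutation test, two-sided, p = 0.000155, Benjamini-Hochberg adjusted 0.000932 over 6 tests of shares). The other 3 rapamycin mice had no alpha UMI and gave no value. Per mouse the share was 22.4% and 26.7% at 3 months, 23.4% and 23.8% at 20 months, 23.1% and 24.2% at 28 months and 14.3% in 28 months rapamycin 1. The last rests on 1 of 7 UMIs (95% Wilson interval 2.57% to 51.3%), and that of 3 months 2 on 4 of 15 (10.9% to 51.9%). In the diet pool it was 2.33% and 1.70% (control), 1.99% and 2.16% (low protein), 2.34% and 0% (high fat) and 1.81% and 2.20% (caloric restriction), where the 0 is of 18 UMIs. Among mice with 50 or more hemoglobin UMIs the means were 23.4% ± 0.698 (SD, n = 5) and 2.08% ± 0.251 (SD, n = 7; exact permutation test, adjusted p = 0.00758). Strain and pool coincide here, and neither can be told apart from the assignment of reads between near-identical genes.

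The 5 FVB/NJ single libraries, made with another release of the counting software, had Hba-a2 shares of 1.80% (control), 0.386% (high fat), 1.89% (low protein), 0.964% (young) and 1.49% (old). Their mean of 1.31% ± 0.628 (SD, n = 5) did not differ from the diet pool by the test over all mice (exact permutation test, adjusted p = 0.3002). It was lower by 0.774 percentage points among mice with 50 or more hemoglobin UMIs (exact permutation test, adjusted p = 0.0189), which leaves out high fat pool 2 only. The other 2 ratios varied more within the pools. Alpha chains made up 18.7% ± 13.9 (SD, n = 10) of hemoglobin UMIs in the aging pool, against 29.3% ± 4.29 (SD, n = 8) for the diet pool (exact permutation test, adjusted p = 0.160). Among mice with 50 or more hemoglobin UMIs the alpha share was 25.8% (n = 5) and 28.0% (n = 7; exact permutation test, adjusted p = 0.239). Hbb-bt made up 11.4% ± 8.22 (SD, n = 10) and 7.13% ± 1.34 (SD, n = 8) of beta UMIs (exact permutation test, adjusted p = 0.273). The alpha share was 28.0% ± 2.96 (SD, n = 5) and the Hbb-bt share 8.94% ± 2.05 (SD, n = 5) in the single libraries (exact permutation test against the diet pool, adjusted p = 0.601 and 0.160).

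**Figure D3:**
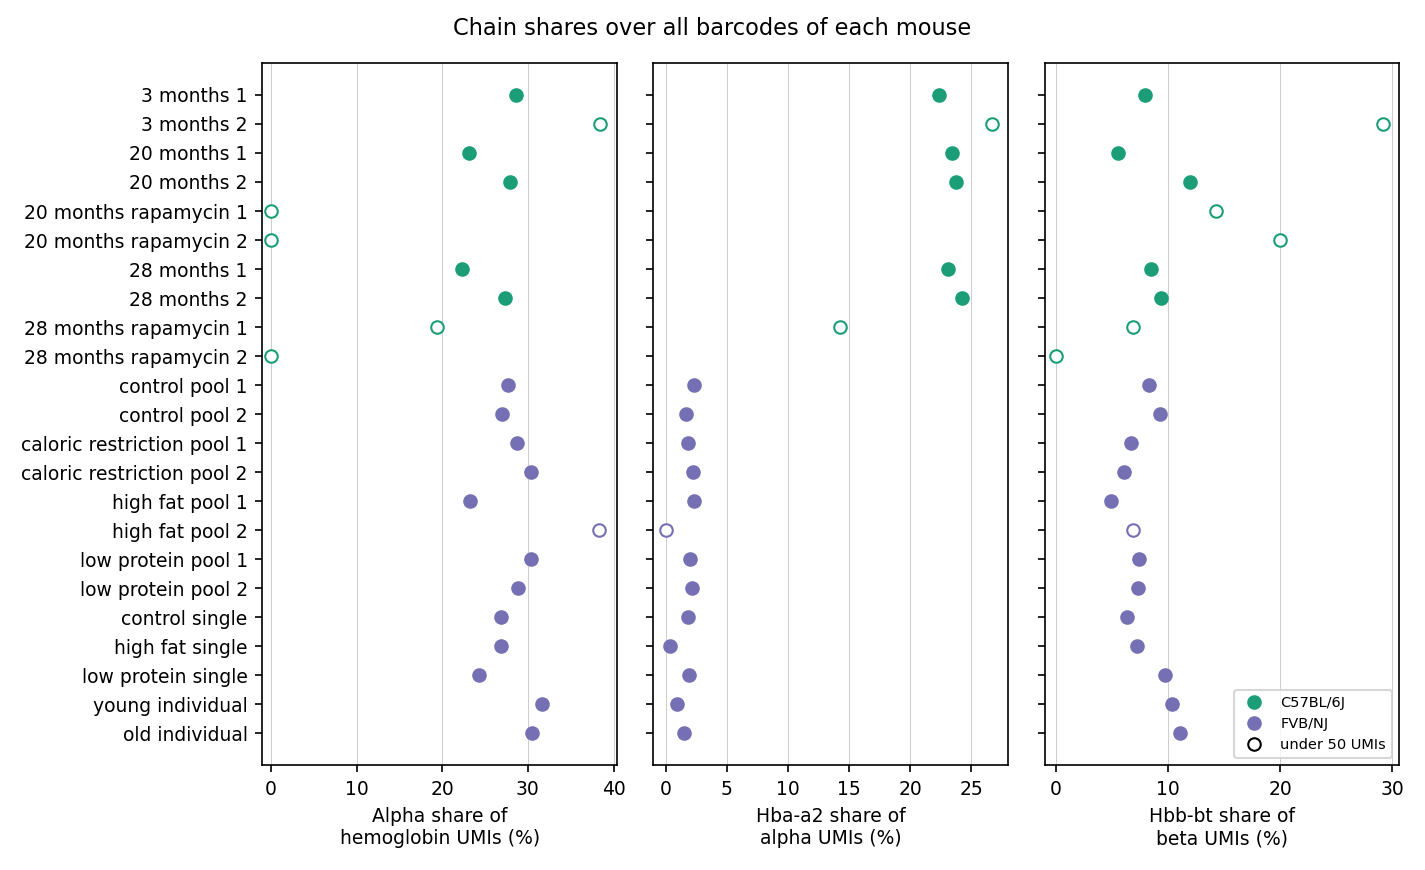
Percent of alpha chains in hemoglobin UMIs, of Hba-a2 in alpha UMIs and of Hbb-bt in beta UMIs for each mouse, green for C57BL/6J and purple for FVB/NJ, open where the mouse had under 50 hemoglobin UMIs. Hba-a2 lay between 14.3% and 26.7% in the aging pool and at 2.34% or less in every FVB/NJ mouse.

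Within a mouse, the same ratios were compared between high-hemoglobin and secretory barcodes in the 7 mice with 50 or more hemoglobin UMIs in each. The alpha share differed by a mean of -8.26 percentage points, high-hemoglobin minus secretory (SD 14.6), with 2 mice far from the rest. In caloric restriction pool 2 alpha chains were 29.0% of the UMIs of high-hemoglobin and 56.98% of those of secretory barcodes, and in low protein pool 1 29.8% and 59.5%. The Hba-a2 share differed by 0.206 percentage points (SD 1.28) and the Hbb-bt share by 1.82 (SD 3.78). The sets were chosen with hemoglobin in view. In most of these mice 1 barcode held nearly all secretory hemoglobin UMIs, so a value stands for a droplet more than for a mouse. These differences are therefore a description with no test. A barcode of both sets held 3022 of 3031 secretory hemoglobin UMIs in caloric restriction pool 1 and 392 of 396 in control single. In high fat single such a barcode held 89 of 707. With overlapping barcodes taken out of the secretory set, 5 mice remained. The alpha share then differed by -12.4 percentage points (SD 15.6). Against Ptprc-positive barcodes 4 mice could be compared, with differences of -4.07, 1.54 and 1.99 percentage points, and the sets share barcodes.

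Single droplets showed where unequal ratios lay. Among the 233 high-hemoglobin barcodes the alpha share ran from 14.04% to 50.6% (median 30.9%), and 1 reached 50%. Among the 59 other barcodes with 10 or more hemoglobin UMIs it ran from 19.3% to 100% (median 37.0%), and 18 of them, in 8 mice and with 1592 hemoglobin UMIs together, were at 50% or more. Alas2, the first enzyme of heme synthesis in red cell precursors, had a UMI in 154 of the 233 and in 9 of the 59. Epcam or Krt5, epithelial genes, had a UMI in 14 of the 233 and 31 of the 59. Of the 18 droplets rich in alpha chains, 8 had Epcam or Krt5, 8 had Col1a1 or Rgs5 (genes of fibroblasts and pericytes), 4 had a blood endothelial gene and 1 had Alas2. These droplets were picked by their own alpha share, so the counts are a description.

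For the low protein diet, hemoglobin over all barcodes was 4764 and 6086 CPM in the pool (15530 and 25133 UMIs) against 1013 and 3997 CPM on the control diet (10364 and 4145 UMIs). In the single libraries it was 5.62 CPM (218 UMIs) against 21.3 CPM (1035 UMIs). The log2 ratio of mean CPM was 1.12 in the pool and -1.92 between the singles, so the direction was opposite. A fit over the 3 and 3 mice with the pool as a block (edgeR) gave log2 fold changes of 0.43 (SE 0.64) for Hba-a1, 1.63 (SE 0.43) for Hba-a2, 0.28 (SE 0.62) for Hbb-bs and 0.49 (SE 0.50) for Hbb-bt. Over all 12338 genes tested 0% were called (0 genes by edgeR, 254 at an unadjusted p under 0.05, 3 by DESeq2). In the pool, high-hemoglobin barcodes numbered 16 on low protein and 5 on the control diet.

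With high-hemoglobin barcodes left out, Hba-a1 had a log2 fold change of 0.43 and Hbb-bs of -0.64 on low protein, and with every barcode of 10 or more hemoglobin UMIs left out Hba-a1 had 0.27 and Hbb-bs 0.24. In secretory barcodes the fit gave -0.32 (SE 1.13) for Hba-a1 and -1.93 (SE 1.15) for Hbb-bs, and the other 2 genes were below the filter on low counts. There, 0.0145% of 6874 genes were called, 1 gene. Among barcodes that passed the filter for whole cells the log2 fold changes were 2.26, 2.03, 2.26 and 2.64 for Hba-a1, Hba-a2, Hbb-bs and Hbb-bt.

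The high fat and calorically restricted groups were compared with the same control mice, so their values are not independent of each other or of the low protein contrast. On the high fat diet hemoglobin was 478 and 13.1 CPM in the pool and 23.3 CPM in the single. The log2 fold changes were -2.39 (SE 1.05) for Hba-a1, -2.65 (SE 0.75) for Hba-a2, -2.18 (SE 1.16) for Hbb-bs and -2.75 (SE 0.95) for Hbb-bt, each with an adjusted p of 1 (edgeR). None of the 4 was called, against 0% of 12457 genes (0 by edgeR, 322 at an unadjusted p under 0.05, 1 by DESeq2). Both pool mice lay below both controls (log2 ratio of mean CPM -3.35), but the high fat single lay slightly above its control (0.127), and 2001 of the 2755 UMIs of high fat pool 1 (72.6%) were in 1 secretory barcode. With high-hemoglobin barcodes left out the fold changes turned to 1.46 for Hba-a1, 1.33 for Hbb-bs and 3.14 for Hbb-bt (adjusted p = 1.00 by edgeR). In secretory barcodes they were 1.11 for Hba-a1, 0.66 for Hbb-bs and 2.62 for Hbb-bt (adjusted p = 1.00 by edgeR), with 0% of 7000 genes called (0 by edgeR, 172 at an unadjusted p under 0.05, 0 by DESeq2).

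Under caloric restriction hemoglobin was 634 and 2727 CPM, with 1 mouse below both controls (1013 and 3997 CPM) and 1 between them. The fit over the 8 pool mice gave -0.88 (SE 1.05) for Hba-a1, -0.48 (SE 0.80) for Hba-a2, -1.04 (SE 1.22) for Hbb-bs and -1.60 (SE 0.92) for Hbb-bt, with adjusted p of 0.770, 0.854, 0.767 and 0.473 (edgeR). No member was called, against 1.22% of 11920 genes. In secretory barcodes Hba-a1 had 1.88, Hbb-bs 0.70 and Hbb-bt 4.14 (adjusted p = 0.827, 0.955 and 0.277 by edgeR), against 0.737% of 5697 genes called. Without control pool 2, Hbb-bt had 7.11 in secretory barcodes, a contrast that then rests on 1 control mouse and on the pair of droplets named above.

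**Figure D4:**
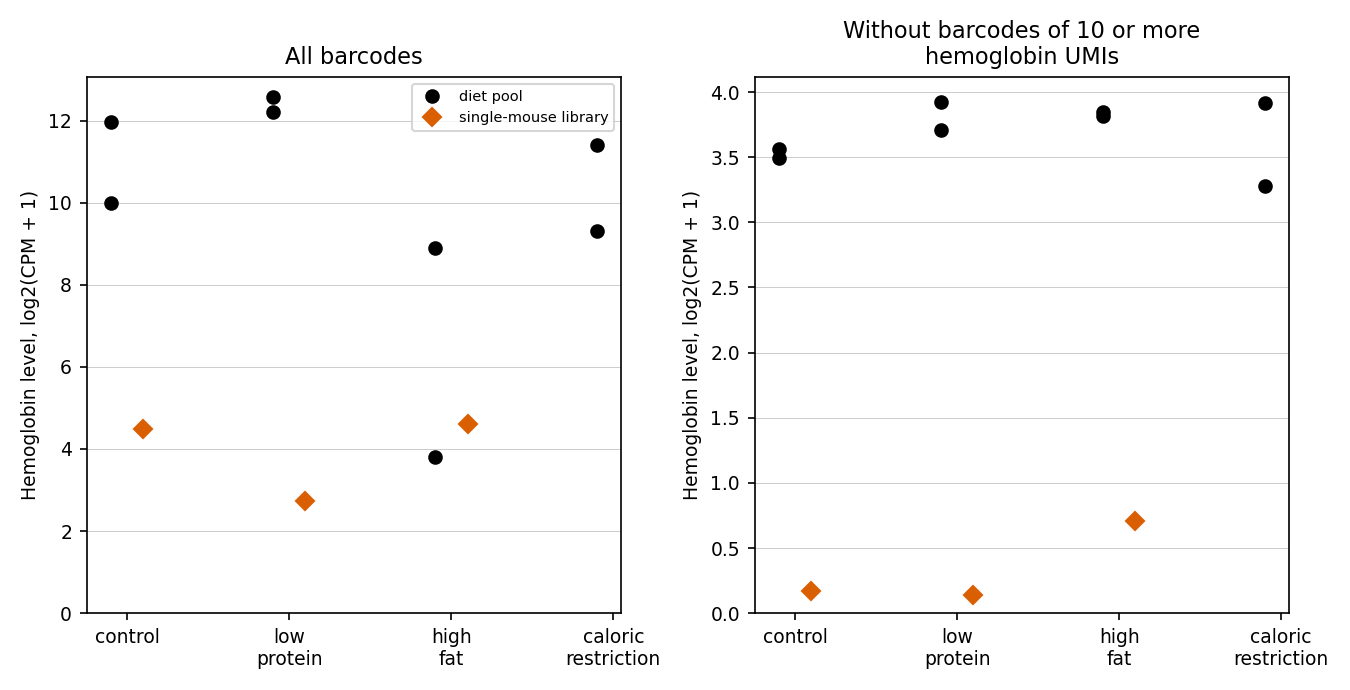
Hemoglobin per mouse by diet as log2(CPM + 1), over all barcodes on the left and without barcodes of 10 or more hemoglobin UMIs on the right, circles for pool mice and diamonds for single libraries. The low protein pool mice (4764 and 6086 CPM) sit above the control mice on the left, while on the right the 8 pool mice lie between 8.71 and 14.2 CPM.

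In the aging pool hemoglobin was 701 and 2.57 CPM at 3 months (3559 and 39 UMIs), 254 and 70.8 CPM at 20 months (961 and 800) and 747 and 446 CPM at 28 months (3394 and 2057). With rapamycin it was 3.80 and 0.874 CPM at 20 months (7 and 5 UMIs) and 6.83 and 1.15 CPM at 28 months (36 and 7). The slope per month of age was 0.00 (SE 0.05) for Hba-a1, 0.01 (SE 0.05) for Hba-a2, 0.02 (SE 0.05) for Hbb-bs and 0.02 (SE 0.04) for Hbb-bt on the log2 scale, with adjusted p from 0.815 to 0.990 (edgeR). No member was called, against 0% of 11938 genes (0 by edgeR, 1681 at an unadjusted p under 0.05, 19 by DESeq2). The mice of 3 months decided this value: without 3 months 1 the slopes were 0.23 to 0.29 per month. There Hba-a2 (adjusted p = 0.0462) and Hbb-bt (adjusted p = 0.0454) were among 4 genes called by edgeR of 12395.

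All 4 genes were lower in the rapamycin mice in the fit with age as a covariate. The log2 differences over the 10 mice were -7.78 (SE 1.67) for Hba-a1, -8.24 (SE 1.86) for Hba-a2, -6.86 (SE 1.47) for Hbb-bs and -6.71 (SE 1.48) for Hbb-bt. Their unadjusted p of 0.000780 to 0.00115 gave an adjusted p of 0.804 for each (edgeR), so none was called, against 0% of 11938 genes (0 by edgeR, 673 at an unadjusted p under 0.05, 8 by DESeq2). Among the 8 mice of 20 and 28 months, where treated and untreated mice share their ages, the differences were -7.78, -8.18, -6.76 and -6.64. There the adjusted p was 0.0117 for Hba-a1, Hba-a2 and Hbb-bt and 0.0213 for Hbb-bs (edgeR), and the 4 hemoglobin genes were the 4 genes called of 11747 (0.0341%). DESeq2 on the 10 mice called 8 genes (0.067% of 11938), the 4 hemoglobin genes among them (adjusted p from 0.00033 to 0.00335). Both fits read UMI counts that were in view when the genes were chosen, so these calls are not independent evidence. The 4 rapamycin mice together held 6 UMIs of Hba-a1, 1 of Hba-a2 and 4 of Hbb-bt. These 3 genes therefore passed the filter on low counts only through untreated mice. In the untreated mice of 20 and 28 months, 6802 of 7212 hemoglobin UMIs lay in 6 droplets that held all 4 genes, so the 4 calls are not separate. Over the 15 to 17 alternatives that could be fitted per gene, 3 called each member by an adjusted p under 0.05, and the adjusted p ran up to 1.00.

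High-hemoglobin droplets were counted by treatment at 20 and 28 months. The 4 rapamycin mice had 0 such droplets among 2115 barcodes, which allows up to 0.142%, and 55 hemoglobin UMIs. The 4 untreated mice of the same ages had 6 among 2729 barcodes, with 6802 of their 7212 hemoglobin UMIs. Pooled over mice, Hbb-bs had 44 UMIs with and 4975 without rapamycin, a ratio of CPM of 88.3 (exact 95% interval 65.7 to 122). Hba-a2 had 1 and 416 UMIs (ratio 325, exact 95% interval 58.0 to 12860), Hba-a1 6 and 1348 (ratio 175, 80.4 to 479) and Hbb-bt 4 and 473 (ratio 92.3, 35.8 to 340). These intervals cover the counting of UMIs only, and UMIs of 1 droplet are not independent mice. Without high-hemoglobin barcodes Hba-a1 had -4.22 and Hbb-bs -2.48 (adjusted p = 0.803 by edgeR), and without barcodes of 10 or more hemoglobin UMIs no member passed the filter on low counts. In secretory barcodes of the aging pool no member passed that filter either. The background there was 0% of 6878 genes for age (0 by edgeR, 374 at an unadjusted p under 0.05, 6 by DESeq2) and 0% for rapamycin (0, 449 and 2).

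The other genes of the high-hemoglobin droplets were compared with the remaining barcodes of the same mouse in the 3 mice that had at least 10 such droplets, low protein pool 2 with 11, the young individual with 173 and the old individual with 19. The young and the old individual had no secretory barcodes and much Gpx5 RNA, so this comparison may not be one of seminal vesicle alone. The 4 hemoglobin genes were taken out of the counts and library sizes first, because they had chosen the droplets. Of 10664 genes tested, 23 (0.216%) were higher and 77 (0.722%) lower in the droplets (edgeR with the mouse as a block, adjusted p under 0.05). Of 38 erythroid genes listed, 20 could be tested, and 8 were higher and none lower. Their median log2 fold change was 2.14, beside -0.74 over all genes tested (2.21 and -0.23 with genes at 0 on one side set to their bound). In simulated data this comparison recovered no change of log2 2 and all changes of log2 5 or 8, so members not called may have changed.

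Alas2 had a larger fold change than the other erythroid genes named here. It had 930, 3143 and 3351 CPM in the high-hemoglobin droplets of low protein pool 2, the young and the old individual, and 0.980, 0.470 and 0.823 CPM in the other barcodes. Its log2 fold change was 10.68 (SE 0.85, adjusted p = 2.91e-32, edgeR). Alas2 passed the filter on low counts only through the droplets, whereas 5 of the 8 erythroid genes called higher passed it in the other barcodes as well. The droplets were also higher in Slc25a37 (4.70), the mitochondrial iron importer, Bpgm (4.11), the enzyme of 2,3-bisphosphoglycerate, Fech (4.02), the last enzyme of heme synthesis, Ube2l6 (4.14), a ubiquitin-like protein conjugating enzyme, and Mkrn1 (3.45), a ubiquitin ligase, all on the log2 scale.

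Over all 23 mice the high-hemoglobin droplets held 158709 UMIs of other genes, 0.0530% of all such UMIs. They held 340 of the 483 Alas2 UMIs (70.4%) in 154 droplets of 15 mice. Without the young and the old individual they held 111 of 208 Alas2 UMIs (53.4%). They held 2 of 4 UMIs of Slc4a1, the anion exchanger of the red cell membrane, and 0 of Klf1, Gata1 and Epor, regulators of early red cell precursors. All other barcodes held only 30, 2 and 45 UMIs of Klf1, Gata1 and Epor, so a 0 in the droplets says little. Ahsp, the alpha chain chaperone, was not in the genes shared by the matrices. The embryonic genes Hbb-y, Hbb-bh1 and Hba-x had 0 UMIs in the droplets and only 1, 3 and 0 in all other barcodes. Of 9 other globin genes listed, 2 could be tested and 1 was called higher. That was Hbq1a, a theta globin gene, with 2, 6 and 2 UMIs in the droplets of the 3 mice against 0, 0.217 and 0.299 CPM in their other barcodes, which passed the filter on low counts only through the droplets. Hbq1b had 5 of 5 UMIs in the droplets.

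The listed markers of other cells of blood and vessels were not called higher in the droplets by edgeR with TMM scaling. None of 4 platelet genes tested (of 10 listed, median log2 0.01 with bounds), of 6 macrophage genes (of 7, -0.26), of 11 genes of heme and hemoglobin handling (of 15, -0.26) and of 6 blood endothelial genes (of 6, 1.46) was called in either direction. Of 3 neutrophil genes tested (of 12, 0.16) Lcn2 was lower, by -3.56 (adjusted p = 3.96e-06, edgeR), and S100a8 and S100a9 had 0 UMIs in the droplets of any mouse. Lcn2 had 4688 and 6870 CPM in the other barcodes of the young and old individuals and 150 CPM in those of low protein pool 2. Whether this Lcn2 RNA came from neutrophils was not tested. Under scaling by library size alone, which moved the median of all genes from -0.74 to -0.03, 4 of the 6 endothelial genes were called higher. With TMM, edgeR called genes outside the lists higher, among them Fabp4 (3.47, adjusted p = 0.0136), Cd36 (2.85, 0.0363), Sox17 (2.51, 0.0242) and Tm4sf1 (2.29, 0.0125). Fabp4 had 6472 CPM in the droplets and 30.6 CPM in the other barcodes of low protein pool 2, but 0 and 9.65 CPM in the old individual. Whether these genes came with endothelial cells was not tested. Gpx5, an epididymal secreted enzyme, had the lowest p among the genes that were lower, with a log2 fold change of -5.79 (adjusted p = 2.38e-24, edgeR). It had 27636 and 40698 CPM in the other barcodes of the young and old individuals and 0.245 CPM in those of low protein pool 2.

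**Figure D5:**
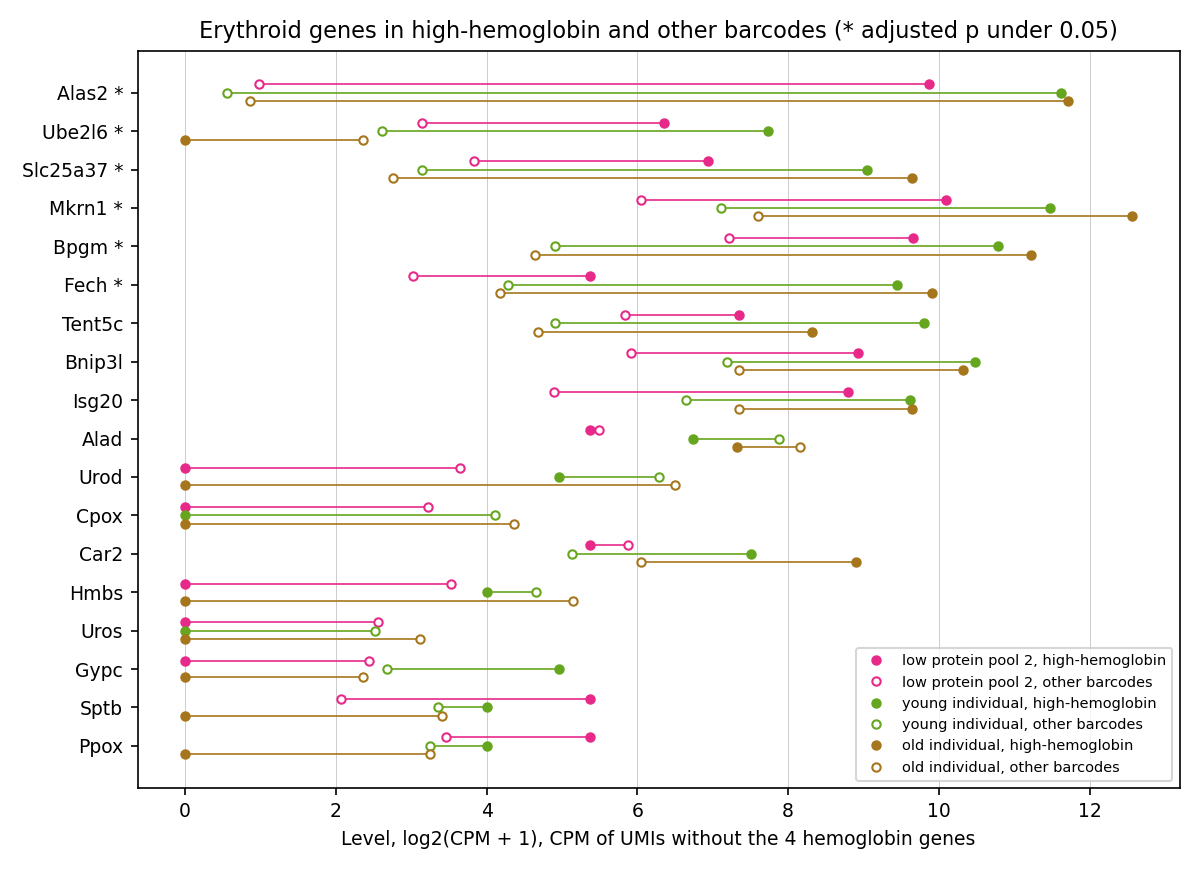
Levels, as log2(CPM + 1), of 18 of the 20 erythroid genes tested in high-hemoglobin barcodes (filled) and other barcodes (open) of low protein pool 2, the young and the old individual, with the 4 hemoglobin genes taken out and an asterisk where the adjusted p was under 0.05. Alas2 runs from 930 to 3351 CPM in the droplets and lies at or below 0.980 CPM elsewhere.

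The genes most like summed hemoglobin over all barcodes were Fndc4 (Spearman's rho 0.773), Slc25a20 (0.756), Tpm3 (0.730), Dph5 (0.728) and Il3ra (0.728), over the 18 pool mice after each pool's mean was subtracted and among 8993 genes with a mean of at least 5 CPM, whose median rho was 0.115. The points share a library and a tag pool. No erythroid gene was among these 5, and Alas2 did not reach the level needed to enter.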

How the data were processed

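The authors deposited filtered 10x matrices of whole-number UMI counts per gene and barcode, not normalized, made by droplet 3′ single-cell RNA-seq and aligned to mm10; the methods name Seurat for their clustering, which was not used. Per the file headers, release 6.0.1 of Cell Ranger made the 18 pool matrices, and release 3.1.0 of the counting software the 5 others. No barcode filter was added to the deposited counts. Sums per mouse were kept over the 30406 shared genes. The members, the sets of barcodes and all gene lists were chosen with earlier results of these data known.

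UMI counts summed per mouse were tested across all genes with edgeR 4.0.16 (TMM, filterByExpr, quasi-likelihood test) in R 4.3.3, with the pool or mouse as a block where named, and Benjamini-Hochberg adjustment over all genes tested at 0.05. Diet contrasts used 3 mice a group, caloric restriction 2. DESeq2 1.42.0, library size scaling, a filter at 1 UMI, filtered barcodes and left-out mice were alternatives. Shares of chains between libraries were tested by exact permutation in SciPy 1.17.1. Hemoglobin levels and chain shares of the sets of barcodes of a mouse are compared as a description, without the planned tests. Fits were tested on simulated data: 82.5% to 100% of genes changed by log2 2 were recovered over all or secretory barcodes for diet and 92.0% to 99.0% for rapamycin. For age, 79.9% and 97.0% were recovered. False genes made up 2.94% to 15.4% of the calls in the diet fits, most of which exceeded the 0.05 aimed at. The false share was 4.66% and 2.94% for rapamycin and 3.64% and 4.90% for age. The changed genes were drawn at random, so these shares are not those of the 4 hemoglobin genes. Genes named from lists were up to 4 per list by lowest p, and the 5 most like summed hemoglobin. Mice of the pools were matched by tag sheet and matrix name. Protein sequences were not used here. Single values of 2 of the 20 erythroid genes tested are not reported here.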

Additional observations from a re-analysis of the deposited data

Results flagged for a closer look

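Within groups of 4 to 10 samples, 32 sets of values were examined for a sample whose gap to its neighbour was large against the range of the group, and 7 were flagged; by chance about 1 in 20 groups is. Of beta chain UMIs in untreated mice of the aging pool, Hbb-bt made up 29.17% in 3 months 2 and 5.548% to 11.96% in the other 5, on 24 beta UMIs. Alpha chains made up 19.44% of hemoglobin UMIs in 28 months rapamycin 1 and 0% in the other 3 rapamycin mice, which had 5 to 7 hemoglobin UMIs each. In high fat pool 2, with 47 hemoglobin UMIs, the alpha share was 38.3% (the other 7 mice of the pool 23.23% to 30.37%) and the Hba-a2 share of alpha 0% (the others 1.701% to 2.344%).

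Hemoglobin in Ptprc-positive barcodes was 701.7 CPM in 20 months 2 (the other mice of 20 months 1.281 to 8.327 CPM), 310.5 CPM in 28 months 1 (the others 2.524 to 29.17 CPM) and 10240 CPM in caloric restriction pool 2 (the others 0 to 18.73 CPM), each from 1 or 2 barcodes.

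Hemoglobin over all barcodes on low protein against control had a log2 ratio of mean CPM of 1.12 in the diet pool and -1.92 between the single libraries, and on high fat of -3.35 and 0.127. The mice of the pool and the single libraries moved in opposite directions in both contrasts, and this difference was not tested.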

How the results depend on the processing

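Of 917 alternative values, 814 counted as the same. That is, a test kept its side of the threshold, a value stayed within the spread, or a count stayed equal or near. In 12 a call was lost or a count of calls fell, and in 67 a call was gained or such a count rose. Another 24 values moved. No called value changed sign, while values that were not called did, as given here. The filter for whole cells left 48 high-hemoglobin barcodes and a median of 219598 hemoglobin CPM in them, and limits of 5%, 20% and 50% gave medians of 503544, 823381 and 926243 CPM. Requiring 2 Ptprc UMIs left 1543 barcodes.

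For Hbb-bs on low protein over all barcodes the log2 fold change of 0.28 became 2.26 in filtered barcodes, -0.64 without high-hemoglobin barcodes and 1.15 in the pool alone, and ran from -0.46 (without control pool 1) to 1.15 with 1 mouse left out. In secretory barcodes it ran from -2.78 to 1.11 (without control pool 2). A filter at 1 UMI called 4 members over all barcodes (109 of 19315 genes called) and 3 in secretory barcodes (17 of 16175) on high fat. Under caloric restriction it called 3 members over all barcodes (1074 of 19690 genes called) and 3 in secretory barcodes (142 of 15056). Leaving out 1 mouse called 0 to 2 members for age over all barcodes (2 without 3 months 1, where 4 of 12395 genes were called). For rapamycin it called 0 to 4 (4 without 3 months 1, where 4 of 12395 genes were called). DESeq2 (8 of 11938 genes called), and the fit of the 8 mice of 20 and 28 months (4 of 11747), each called 4 members for rapamycin.

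Secretory against Ptprc-positive barcodes gave a log2 ratio of -2.95 in the aging pool and -0.92 without barcodes of 10 or more hemoglobin UMIs. The alpha share of the aging minus the diet pool ran from -12.8 (without 3 months 2, past the threshold) to -8.51 percentage points with 1 mouse left out. The Hba-a2 share differed by 22.7 points when the aging pool was restricted to 3 months, where the adjusted p of 0.0667 (exact permutation test) missed the threshold with 2 mice. The diet pool minus the singles gave 0.774 points with 50 or more UMIs, and 0.285 to 0.774 with 1 mouse left out.

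Genes higher in high-hemoglobin droplets numbered 23, and 88 under library size scaling, 42 against other barcodes with a hemoglobin UMI and 7 to 21 with 1 mouse left out (7 without the young individual, 13 without low protein pool 2). Lower genes numbered 77, and 0 at a limit of 20%, 3 at 50%, 14 by DESeq2, 129 against barcodes with a hemoglobin UMI and 20 to 108 with 1 mouse left out (20 without low protein pool 2). Erythroid genes called higher numbered 3 to 10 with 1 mouse left out. The cause of these shifts was not tested.

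Genes called over all alternatives ran from 0 to 84 for low protein, 0 to 109 for high fat, 0 to 1074 for caloric restriction, 0 to 19 for age and 0 to 8 for rapamycin over all barcodes, and from 0 to 33, 0 to 24, 30 to 142, 0 to 248 and 0 to 206 in secretory barcodes. The tags number the mice of each group of a pool 1 and 2. The differences between mouse 1 and mouse 2 correlated between groups, over genes, from -0.13 to 0.413 in the aging pool (over 0.1 in 3 of 10 pairs of groups). In the diet pool the correlation ran from -0.227 to 0.393 (3 of 6). Whether mice of the same number share more than that number is not known from these values. With that number as a replicate block, chosen after seeing the data, Hbb-bs on low protein had -0.72 in secretory barcodes in place of -1.93 and no member was called for high fat, caloric restriction, age or rapamycin. Over all barcodes the block called 0 genes for low protein, 1 for high fat (0 without it), 153 for caloric restriction (146 without it), 0 for age and 0 for rapamycin. Depth limits the members in the rapamycin mice (5 to 36 hemoglobin UMIs each), and high-hemoglobin droplets are too few in most mice (0 to 5 outside low protein pool 2, the young and the old individual) for a comparison of their other genes.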

Other observations

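Among the 18 pool mice, summed hemoglobin had a Spearman's rho of 0.492 with Slc25a37, 0.519 with Mkrn1, -0.137 with Bpgm and -0.137 with Fech over all barcodes, after each pool's mean was subtracted and beside a median of 0.115 over 8993 genes, so the erythroid genes that mark the droplets did not share 1 order with hemoglobin over whole mice. These are descriptions over mice that share a pool, with no test.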
